A study of Mus musculus with 9 samples.

Results

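Myc, its DNA-binding partner Max and 6 enzymes of polyamine metabolism (Odc1, Amd1, Srm, Sms, Smox and Sat1) were followed across sorted stromal cells of mouse muscle and fat. The 8 genes were taken by name, out of 26214 genes in the deposited table, and 7 of them were above 0 in at least 1 library. The study compares FAPs, the fibro-adipogenic progenitors of skeletal muscle, with ASCs, the adipose stromal cells of the subcutaneous adipose tissue (ScAT), early after a muscle injury. RNA was sequenced at day 1 after an injection into the quadriceps, where glycerol destroys muscle fibres and NaCl is the control. The libraries were 3 of ASCs and 2 of FAPs after NaCl, 3 of FAPs after glycerol (injured FAPs), and 1 of CD31+CD45+ cells after glycerol, which, unreplicated, was left out of every test. The mice were C57Bl/6 by the labels and C57Bl/6 J males of 8 to 12 weeks by the study's methods. Magnetic beads sorted ASCs and FAPs as negative for CD31 and CD45 and positive for Sca-1. The methods describe triplicates from a pool of cells of 3 animals, so libraries of a group need not stand for separate mice, and the p-values measure only the spread between these libraries, which may be technical.

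Reads on genes numbered 27349184 to 27481573 in the ASC libraries (median 27402102) and 24052508 and 24164447 in the FAP libraries. They numbered 26698572 to 27028114 in the injured FAP libraries (median 26968235) and 13091077 in the CD31+CD45+ library. All levels below are normalised read counts, each made of whole reads scaled by a factor of its library, and 3 reads were worth a level of 2.29 to 4.71. The normalised counts of all genes summed to between 30975900.0 and 36203100.0 in ASC libraries, to 22871400.0 and 22733700.0 in FAP libraries and between 20614700.0 and 21159800.0 in injured FAP libraries. Groups were compared by limma on log2(level + 1), in a single fit of 8 libraries over 13601 genes with a mean level of at least 10. A gene counted as higher or lower, and is said to have passed, where its fold change exceeded 0.58 on the log2 scale with a Benjamini-Hochberg adjusted p below 0.05. Fewer cells of a type and less RNA per cell cannot be told apart in such libraries.

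Myc is a transcription factor that pairs with Max and binds DNA at the E-box CACGTG, driving genes of ribosome assembly, nucleotide synthesis and growth, and fibroblasts induce it rapidly when growth factors reach them. Among its textbook targets is Odc1, ornithine decarboxylase, which makes putrescine and so opens polyamine synthesis. Amd1 decarboxylates S-adenosylmethionine to the donor that spermidine synthase (Srm) and spermine synthase (Sms) use, spermine oxidase (Smox) returns spermine to spermidine, and spermidine/spermine acetyltransferase (Sat1) marks polyamines for export or breakdown.

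The labelled cell types were checked against their markers. Pdgfra, a receptor of both FAPs and ASCs, stood at 10837, 15083 and 13043 in ASCs, 17754 and 17757 in FAPs, 23649, 25268 and 23236 in injured FAPs and 119 in the CD31+CD45+ library. Ly6a, which encodes Sca-1, was at 46513, 49855 and 36777 in ASCs, 16542 and 10823 in FAPs, 24309, 21308 and 24855 in injured FAPs and 17672 in the CD31+CD45+ library. All 11 stromal genes listed were above 0 in all 9 libraries, with a summed level between 680740.0 and 3346700.0 in the 8 sorted stromal libraries and of 64758 in the CD31+CD45+ library. Ptprc, the gene of CD45, was at 0, 1.13 and 0 in ASCs, at 0 in both FAP libraries, and at 11.8, 55.8 and 9.92 in injured FAPs, against 797 in the CD31+CD45+ library. Pecam1, the gene of CD31, was at 83.0, 46.4 and 67.8 in ASCs, 195 and 0 in FAPs and 192, 269 and 121 in injured FAPs, against 45323 in the CD31+CD45+ library. Ptprc and Pecam1 were thus low or at 0 in the stromal libraries, but not every gene of the endothelial list was. Tek encodes Tie2, and the paper cites a subset of FAPs described by low Tie2, so this gene is used to describe FAPs too. Tek, of the endothelial list, stood at 5986, 4841 and 6699.9 in ASCs and 2120.5 and 1890.1 in FAPs, against 13098 in the CD31+CD45+ library, and Plvap at 749.6, 710.1 and 756 in ASCs and 0 in both FAP libraries, against 32817. Cdh5, of the same list, went the other way, at 123, 87.2 and 59.0 in ASCs and 1438 and 686 in FAPs, against 98652. Flt1, Kdr, Tie1, Esam and Egfl7 were likewise higher in both FAP libraries than in any ASC library. Vwf, Emcn and Cldn5 were at 0 in both FAP libraries and above 0 in ASCs. Ly6a, the sorting marker, was lower in both FAP libraries than in the CD31+CD45+ library.

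Amd1 was listed at 0 in all 9 libraries, and so was its near copy Amd2. In the GENCODE M21 annotation of GRCm38, Amd1 lies at chr10:40287458-40302186 on the minus strand. Of the 100-base windows of its longest coding transcript, 76.4% also occur in other annotated genes (Amd-ps1, Amd-ps3, Amd-ps4 and Amd2). The coding sequences of Amd1 and Amd2 hold 1002 bases each and are 99.9% identical, with 1 mismatch, G796C, counted from 1 at the coding start with the base of Amd1 first. Coding bases 781 to 810 are shown because they hold this only difference, which is in capitals.
Amd1: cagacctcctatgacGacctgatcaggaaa
Amd2: cagacctcctatgacCacctgatcaggaaa
Nothing on the activity of this step can be read from these values, since the sources used here do not say how reads matching several genes were counted. Oaz1, antizyme, which targets ornithine decarboxylase for breakdown, was likewise listed at 0 in 8 libraries and at 0.785 in injured FAP library 1, and 41.8% of its windows occur elsewhere. In the annotation, exons of Mir1982 overlap those of Oaz1. The remaining windows of Amd1 and Oaz1 occur in no other annotated gene, and why both were listed at or near 0 was not tested. The share was 27.7% for Sms, 19.6% for Odc1 and 0.376% for Sat1, and it was 0 for Myc, Max, Srm and Smox.

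Promoters are shown next because Myc and Max bind the E-box, and the members carry it unevenly. RefSeq promoters of GRCm38.p6, from 250 bases before to 50 after a gene's start, were found for 6 of the 8 members, all but Myc and Srm. The motif CACGTG, which reads the same on both strands, was in 7.15% of 32851 promoters and in a promoter of 8.09% of 27025 genes. Among the 6 members it was in the promoter of Max and in 1 of 2 promoters of Sms, and not in these windows of Odc1, Amd1, Smox or Sat1. Further down the pathway, 8 of 20 textbook Myc targets had it, as did 3 of 4 hypusine genes and 5 of 20 genes of the Myc and Max network, but 0 of 9 genes of polyamine control and transport. The genes of polyamine supply and salvage had it in 1 of 9 and the genes that Myc represses in 1 of 6. A match describes these letters only, and binding was not measured. The windows below put the motif in capitals, for the members Max (chr12:76962234-76962263, minus strand, motif starting 3 bases before the RefSeq start) and Sms (chrX:157492466-157492495, minus strand, 196 bases before). The RefSeq start used for Max lies upstream of its GENCODE start, given further on. Pim1 (chr17:29493015-29493044, plus strand), Nme1 (chr11:93968273-93968302, minus strand) and Cdk4 (chr10:127063512-127063541, plus strand) stand for pathway genes described further on.
Max: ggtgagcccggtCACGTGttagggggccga
Sms: cccagcggggttCACGTGcatttaaagaaa
Pim1: gtaaacaggaatCACGTGgtctgaaaccag
Nme1: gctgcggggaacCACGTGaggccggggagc
Cdk4: aagggtgaagatCACGTGtccagaacgtcc

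Myc (chr15:61985391-61990374, plus strand) had levels of 35721.5, 25499.5 and 31148 in the ASC libraries, 6473 and 5426 in the FAP libraries and 12853, 11025 and 9819 in the injured FAP libraries, and 1469 in the CD31+CD45+ library. ASCs were highest, injured FAPs came next, FAPs were lowest, and no library of one of these groups reached into another. Such a lack of overlap is common in these data, where 72.2% of all genes tested separate ASCs from FAPs, 84.0% separate injured FAPs from FAPs and 71.8% separate injured FAPs from ASCs. Max (chr12:76937269-76962201, minus strand), the obligate partner, stood at 2325, 1609 and 1616 in ASCs, 1946 and 1767 in FAPs, 1429, 1352 and 1335 in injured FAPs and 2511 in the CD31+CD45+ library. Its ASC and FAP levels overlapped, and the injured FAP libraries lay below both.

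Odc1 (chr12:17544794-17551505, plus strand), which makes putrescine, was at 9132, 6626 and 7241 in ASCs, 1177 and 1102 in FAPs, 5270.3, 4984 and 5434 in injured FAPs and 1161 in the CD31+CD45+ library. Both FAP libraries were far below all others of the stromal cells, and ASCs lay above injured FAPs without overlap. Srm (chr4:148591503-148594993, plus strand), which makes spermidine, was at 4231, 3899.6 and 3189 in ASCs, 1744 and 1571 in FAPs, 6256, 6305 and 5882 in injured FAPs and 369 in the CD31+CD45+ library. Its order differed from that of Myc and Odc1, because injured FAPs stood above ASCs, again without overlap. Sms (chrX:157443855-157492287, minus strand), which makes spermine, was low at 85.6, 62.3 and 57.7 in ASCs, 80.8 and 104 in FAPs, 188, 183 and 238 in injured FAPs and 228 in the CD31+CD45+ library. Injured FAPs were above the other stromal groups, while the highest ASC library exceeded the lower FAP library.

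Smox (chr2:131491496-131525922, plus strand), the spermine oxidase, was at 379, 288 and 324 in ASCs, 940.4 and 953 in FAPs, 301, 346 and 336 in injured FAPs and 1183 in the CD31+CD45+ library. Here the uninjured FAPs were the high group, and ASCs and injured FAPs overlapped. Sat1 (chrX:155213132-155216449, minus strand), the acetyltransferase, was at 7543, 6589.5 and 7084 in ASCs, 2579 and 2328 in FAPs, 1812, 1446 and 2047 in injured FAPs and 2903 in the CD31+CD45+ library. Its order ran from ASCs over FAPs down to injured FAPs, with no overlap, so that of the breakdown enzymes Sat1 was high where Smox was low in ASCs, and low together with Smox in injured FAPs. The plot of the members by library shows these levels, each member on its own axis.

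**Figure D1:**
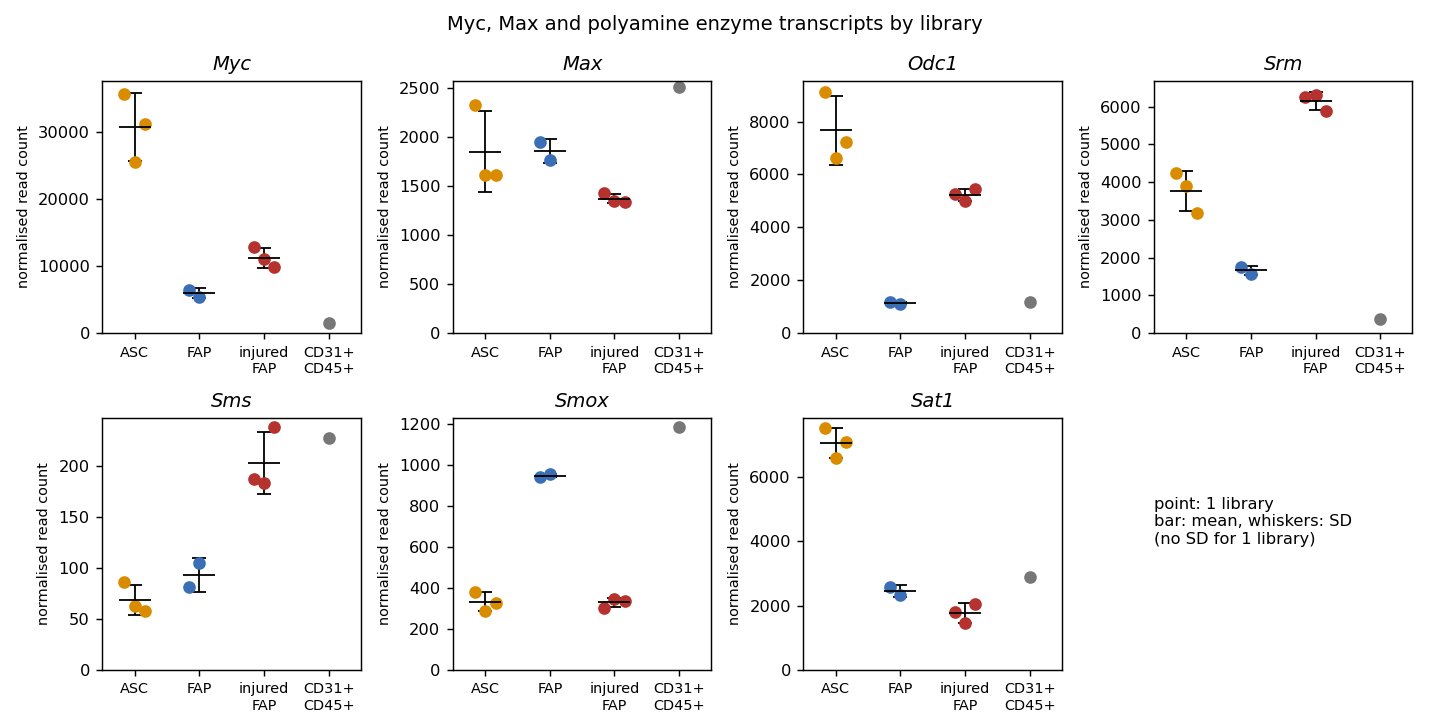
Normalised read counts (vertical axes, linear, from 0) of the 7 members above 0, with 1 point for each library of ASCs, FAPs, injured FAPs and CD31+CD45+ cells, and a bar at the mean and whiskers of 1 SD for each replicated group. Myc, Odc1 and Sat1 are highest in ASCs, Srm and Sms are highest in injured FAPs among the stromal groups, and Smox is high in FAPs.

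Per kilobase of transcript, the mean level in ASCs fell in the order Myc (13169), Sat1 (6086), Odc1 (3472), Srm (2820.0), Max (953), Smox (144) and Sms (18.4). In FAPs the order was Myc (2545), Sat1 (2111), Srm (1239), Max (956), Odc1 (516), Smox (412) and Sms (24.9). In injured FAPs it was Myc (4804), Srm (4594.5), Odc1 (2368), Sat1 (1522), Max (706), Smox (143) and Sms (54.6). By these counts, Sat1 per length thus stood above the synthesis enzymes Odc1, Srm and Sms in both NaCl groups, and came after Srm and Odc1 in injured FAPs. Amd1, listed at 0, is left out of this order, and windows shared with other genes may affect the counts of Odc1 and Sms. In ASCs the ranges of Odc1 and Srm per length overlapped. Myc and Srm stood close together at the top in injured FAPs, with a spread of the Myc libraries (SD 1527 around a mean of 11232, n = 3, not per length) wider than the gap between them. The CD31+CD45+ library had another order, led by Sat1 (2499), Max (1293) and Myc (628).

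The first comparison asks how ASCs differ from FAPs when both come from NaCl-injected mice. Myc, Odc1, Srm and Sat1 were higher in ASCs and Smox was lower. That is 4 higher and 1 lower of the 7 members tested, where 47.2% of all genes tested passed, 23.4% as higher and 23.8% as lower. Passing was thus common among all genes, and the count of 5 is read against that share. Of those calls over all genes 49.6% were higher in ASCs, and 20.1% when each library was instead scaled to an equal total, a scaling that moved the median of all genes from 0.00 to -0.56 on the log2 scale. A common 75th percentile moved it to -0.16. The median of the 7 members was 1.17 above the median of all genes, and 0.81 above it after quantile normalization.

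Myc averaged 30789.8 ± 5120.4 (SD, n = 3) in ASCs, against 5949.6 ± 739.8 (SD, n = 2) in FAPs. It was higher in 3 of 3 ASC libraries, with a log2 fold change of 2.36 (95% confidence interval 1.998 to 2.729, limma with Benjamini-Hochberg, adjusted p = 1.49e-06). The size depended on the scaling, since the value was 1.80 with equal totals and 1.54 after quantile normalization, both outside that interval. Odc1 averaged 7666 ± 1306 (SD, n = 3) against 1139 ± 53.4 (SD, n = 2), which makes it the member with the widest gap, at a fold of 6.66. Its log2 fold change was 2.74 (limma with Benjamini-Hochberg, adjusted p = 1.42e-07), and each ASC library exceeded each FAP library. Srm differed less, being higher by 1.18 on the log2 scale (limma, adjusted p = 2.32e-05), also in 3 of 3 ASC libraries. Its value was 0.61 with equal totals, just past the threshold, and 0.80 after quantile normalization. Sat1, which works against synthesis, was higher by 1.53 (limma, adjusted p = 9.24e-06), so it was higher in ASCs together with Odc1 and Srm. Its value was 0.96 with equal totals and 1.03 after quantile normalization, and that of Odc1 was 2.17 and 2.31. Smox was lower by 1.53 on the log2 scale (limma, adjusted p = 9.31e-06), with 330.3 ± 46.2 (SD, n = 3) against 947 ± 8.90 (SD, n = 2). Max had a log2 fold change of -0.03 (interval -0.37 to 0.32) and did not pass at the deposited scale, though it did with equal totals, at -0.59. Sms had -0.44 (interval -0.95 to 0.08) and did not pass either. It did without ASC library 1 (-0.61), with a common 75th percentile (-0.60) and with equal totals (-0.99), and its sign turned after quantile normalization (0.06).

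In the Myc and Max network, a list of 21 genes of which 20 were tested, 3 were higher and 4 lower in ASCs (35.0% called, median log2 fold change 0.10), but 1 higher and 7 lower with equal totals, median -0.46. The median was -0.07 with a common 75th percentile. Pim1, a kinase that acts together with Myc in cell growth, was at 14807, 13503 and 12047 in ASCs and 1450.1 and 1140.2 in FAPs. No other gene of the network had so wide a gap, with a log2 fold change of 3.38 (limma with Benjamini-Hochberg, adjusted p = 4.50e-08). Wdr5 (0.90) and Ruvbl1 (0.78), cofactors of Myc, were the other genes higher in ASCs, and neither passed with equal totals. Mycn, a paralogue of Myc, was lower at -1.37, although not past the threshold after quantile normalization. Skp2, part of a ubiquitin ligase for Myc, was lower at -0.85 with the same exception. Mxi1, which competes for Max, was lower at -0.73, and did not pass without FAP library 1 (-0.61). Mxd3, of the same Mad family, was lower at -1.03. Its call ended without ASC library 2 (-0.66), without FAP library 2 (-0.54) and without any of the injured FAP libraries (-1.03, with less data on the spread). It also ended with no filter, after quantile normalization and with only the compared groups.

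Around the polyamine enzymes, 3 of 10 genes of control and transport were higher in ASCs and 1 lower (40% called, median -0.12), and 3 higher and 6 lower with equal totals, while after quantile normalization the median was 0.33. Azin1, the antizyme inhibitor that spares Odc1 from breakdown, was at 7076, 5050.3 and 6303 in ASCs and 2076 and 2111 in FAPs, a log2 fold change of 1.54. Atp13a3, a transporter for polyamine uptake, had 1.99, and Slc3a2, a transporter subunit linked to polyamine export, had 2.74. The lower gene was Slc18b1, a vesicular polyamine transporter, at -0.77. Of the genes of supply and salvage, 2 of 11 were higher and 2 lower (36.4% called, median -0.15), with 2 and 5 at equal totals. The higher ones were Slc7a1, a carrier of arginine and ornithine, at 2.72, and Mat2a, which makes S-adenosylmethionine, at 2.29. Mat2a stood at 25142, 10366 and 16772 in ASCs against 3272 and 3419.8 in FAPs. Slc7a2, another arginine carrier, was lower at -1.94, so these carriers stood in opposite order. Mat2b, the partner of Mat2a, was lower at -0.79, a call that ended without ASC library 1 (-0.41), FAP library 1 (-0.68), FAP library 2 (-0.90) or any injured FAP library (-0.79), and with no filter or only the compared groups.

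Hypusine, a modification made from spermidine, sits on Eif5a. Of its 4 genes 2 were higher in ASCs and 1 lower (75% called, median 0.43), but 0 and 1 with equal totals, where the median was -0.14. Eif5a itself had a log2 fold change of 1.10 at the deposited scale, and did not pass with equal totals or after quantile normalization. Dhps, which adds the spermidine part, had 0.62 and did not pass without ASC library 1 (0.46) or FAP library 1 (0.56), with a common 75th percentile or with equal totals. Eif5a2, a paralogue of Eif5a, was the lower gene at -0.76, and did not pass without ASC library 2 (-0.58) or FAP library 1 (-0.72), or after quantile normalization. The textbook Myc targets were higher in ASCs for 16 of 25 genes and lower for 0 (64.0% called, median 0.73), and with equal totals 8 were higher and 4 lower, median 0.17. The list's median was 0.73 above that of all genes, a difference that scaling whole libraries leaves nearly as it is by construction. Eif4e (2.97), the cap-binding protein, Tfrc (2.45), the transferrin receptor, Slc7a5 (2.13), an amino acid carrier, and the nucleolar genes Nop56 (2.02) and Ncl (1.91) had the largest values and passed under both scalings. Cad (0.07), Gart (-0.14) and Shmt2 (0.10) of nucleotide and folate metabolism did not pass. Among genes that Myc represses 1 of 7 was higher and 3 were lower (57.1% called), with a median of 0.49 that was -0.08 with equal totals and -0.18 after quantile normalization. Ndrg1, a growth-arrest gene of that list, was the higher one, at 1.74, and Cdkn1b, a cell-cycle inhibitor, and Ndrg2 were lower at -0.90 and -0.81. Cdkn2b, another such inhibitor, was lower at -1.80, and did not pass without ASC library 3 (-1.35) or without FAP library 1 (-1.29), or after quantile normalization.

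Marker lists are given beside this comparison. The 10 immediate early and dissociation genes overlapped between the groups as a sum, at 653480.0, 790530.0 and 876690.0 in ASCs and 670020.0 and 593200.0 in FAPs, with Fosb the most abundant in each ASC library and Egr1 in each FAP library. They went both ways, with Fosb (2.79) and Atf3 (1.24) higher in ASCs, Hspa1b (-2.66) and Jun (-0.87) lower, and Fos (-0.04) and Zfp36 (0.08) not past the threshold. Pericyte and smooth muscle genes (6 listed) summed to at most 1423 in an ASC library, led by Notch3, and to 21036 and 18518 in FAPs, led by Rgs5 and Acta2. The 8 genes of muscle fibres and satellite cells summed to 111.0 to 154 in ASCs and to 713 and 918 in FAPs, led by Tnnt3 or Acta1. The 6 adipocyte genes summed to 524 to 636 in ASCs and 183 to 238 in FAPs, led by Pparg. The 12 endothelial genes summed to 7364, 5926 and 7761 in ASCs and 7209 and 4913 in FAPs, led by Tek in each, with Vwf, Emcn, Cldn5 and Plvap at 0 in both FAP libraries and Pecam1 in FAP library 2. Genes of the list went both ways, as Cdh5 (-3.52), Flt1 (-4.40), Kdr (-2.81), Tie1 (-4.77), Esam (-3.34) and Egfl7 (-3.75) were lower in ASCs. The 12 leukocyte genes summed to 483, 396 and 377 in ASCs and 265 and 497 in FAPs, led by Cd68 in all but ASC library 2, where Csf1r led. Of these, 9 were at 0 in each FAP library, among them Ptprc, Lyz2, Csf1r and Cd74. The 10 cell division genes, led by Pcna in each library, summed to 2809, 3516 and 2944 in ASCs and 1439.7 and 1837 in FAPs. As a share of the library these sums overlapped, at 0.0078% in ASC library 1 and 0.0081% in FAP library 2. Pcna was higher in ASCs at 1.315 (limma, adjusted p = 5.61e-06), and the other listed division genes did not pass. The part of these cells, of division and of dissociation in the results of this comparison was not tested.

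The second comparison asks what glycerol injury changes in FAPs after 1 day, against the same 2 FAP libraries as above. Myc, Odc1, Srm and Sms were higher in injured FAPs and Smox was lower. That is 4 higher and 1 lower of 7 members, where 52.6% of all genes tested passed, 24.9% as higher and 27.7% as lower. The synthesis enzymes that were tested all passed upward, and neither breakdown enzyme did.

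Myc averaged 11232 ± 1527 (SD, n = 3) in injured FAPs and was higher in 3 of 3 libraries. Its log2 fold change was 0.91 (interval 0.55 to 1.28, limma with Benjamini-Hochberg, adjusted p = 7.04e-04), the smallest among the members that rose. Odc1 averaged 5229.5 ± 228 (SD, n = 3), a fold of 4.59 over FAPs, with a log2 fold change of 2.197 (limma with Benjamini-Hochberg, adjusted p = 7.24e-07). Srm averaged 6147 ± 231 (SD, n = 3) against 1658 ± 122 (SD, n = 2), a log2 fold change of 1.89 (limma, adjusted p = 1.08e-06). Both thus rose more than Myc did, in 3 of 3 injured libraries. Sms, at 203 ± 30.5 (SD, n = 3) against 92.6 ± 16.7 (SD, n = 2), rose by 1.12 on the log2 scale (limma, adjusted p = 0.00165). Smox fell by 1.53 on the log2 scale (limma, adjusted p = 7.92e-06), to 328 ± 23.7 (SD, n = 3). Sat1 had a log2 fold change of -0.48 (interval -0.80 to -0.17, limma, adjusted p = 0.0115) and missed the fold threshold. It passed without injured FAP library 3, at -0.60, and after quantile normalization, at -0.63. Max had -0.44 (interval -0.78 to -0.09, limma, adjusted p = 0.0289) and did not pass.

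In the Myc and Max network 7 of 20 genes were higher and 5 lower in injured FAPs (60.0% called, median 0.14), counts that were 8 and 5 with equal totals. Mxd3, a Max partner of the Mad family seen in cycling cells, was at 18.1 and 36.7 in FAPs and 378, 384 and 388 in injured FAPs, with 14.5, 6.80 and 17.6 in ASCs. Its log2 fold change was 3.84 (limma with Benjamini-Hochberg, adjusted p = 1.57e-05). The other Mad genes went the opposite way, with Mxd4 at -1.22, Mxi1 at -0.90 and Mxd1 at -0.71, the last not past the threshold without FAP library 2 (-0.62). Mlxipl, a glucose-responsive factor that pairs with Mlx, was at 52.3 and 102.5 in FAPs and 3.92, 3.87 and 3.05 in injured FAPs, a log2 fold change of -4.01. Mycn, at -1.89, was lower while Myc was higher. Skp2 (2.08), Pim1 (1.75), the helicase genes Ruvbl1 (1.64) and Ruvbl2 (1.61), Wdr5 (1.06) and Bin1 (0.84), which binds Myc, were higher.

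Of the genes of polyamine control and transport 2 of 10 were higher and 2 lower (40% called, median 0.06). Atp13a3 (1.04) and Slc3a2 (0.92) were higher, and the lysosomal polyamine exporter Atp13a2 was lower at -1.28. Sat2, named for its likeness to Sat1, was lower at -0.75, and this call ended when any FAP library or injured FAP library 1 or 2 was left out, with values then between -0.62 and -0.87. It also ended with no filter, after quantile normalization and with equal totals. Azin1 (0.33) and the antizyme Oaz2 (-0.43) did not pass. Of the genes of supply and salvage 6 of 11 were higher and 0 lower (54.5% called, median 0.67), also with equal totals. Mtap, which recycles the methylthioadenosine that Srm and Sms release, was at 498 and 442 in FAPs and 1452, 1472 and 1461 in injured FAPs. It rose by 1.64 on the log2 scale (limma with Benjamini-Hochberg, adjusted p = 1.32e-05), and the later salvage genes Enoph1 (0.84) and Apip (0.72) rose too, Apip not without FAP library 2 (0.57). Slc7a1 had 1.43 and Slc7a2 0.67, the latter not past the threshold without FAP library 1 (0.53).

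Of the 4 hypusine genes 2 were higher and 0 lower (50% called, median 0.68), with 3 higher at equal totals. Eif5a was at 7551 and 6949.6 in FAPs and 23546, 21085 and 22946 in injured FAPs, a log2 fold change of 1.64, and Dhps had 0.83. Of the textbook Myc targets 22 of 25 were higher and 0 lower (88.0% called), where 24.9% of all genes tested were higher. Their median was 1.67, where the median of all genes was -0.05, and it was 1.80 with equal totals, with the same counts. Npm1, a nucleolar chaperone, was at 2475 and 2117 in FAPs and 14638, 16188 and 18209 in injured FAPs, a log2 fold change of 2.83 (limma with Benjamini-Hochberg, adjusted p = 4.39e-07). Tfrc (2.96), Slc7a5 (2.76), Nme1 (2.72), a nucleotide kinase, and Ncl (2.64) were also among the largest. Nme1, whose promoter window is shown above, was at 344 and 317 in FAPs and 2189, 2013 and 2338 in injured FAPs. Cdk4, with the motif 4 times in its promoter, was at 1624 and 1576 in FAPs and 5764, 5189 and 5539.6 in injured FAPs, a log2 fold change of 1.78, and the nucleotide synthesis genes Cad and Gart had 1.67 and 1.63. Ubtf (0.00), Ccnd2 (0.13) and Tert (0.46) were the targets that did not pass. Among the genes that Myc represses 0 of 7 were higher and 3 lower (42.9% called, median -0.67), namely Ndrg2 (-2.10), Ndrg4 (-0.94) and Cdkn1b (-0.85).

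Cell division genes moved with the injury. Their 10 genes summed to 1439.7 and 1837 in FAPs, 35176, 35072 and 36437 in injured FAPs and 2809, 3516 and 2944 in ASCs, with Mki67 the most abundant in injured FAPs and Pcna in the others. Leukocyte genes (12 listed) summed to 265 and 497 in FAPs, with 9 at 0 including Ptprc, and to 680.3, 3099 and 563 in injured FAPs, with none at 0. Injured FAP library 2 was the high one, led by Lyz2 at 725. Endothelial genes (12 listed) summed to 7209 and 4913 in FAPs, led by Tek, with the same genes at 0 as above. They summed to 2353, 2484 and 1972 in injured FAPs, led by Cdh5, and to 377380.0 in the CD31+CD45+ library. Pericyte and smooth muscle genes summed to 9558, 9117 and 9595 in injured FAPs, led by Cspg4, below both FAP libraries, and immediate early genes to 262710.0, 251520.0 and 226190.0, led by Zfp36. Stromal genes summed to 1575200.0 and 1708900.0 in FAPs and 701970.0, 759500.0 and 680740.0 in injured FAPs, led by Col1a1 except in injured FAP library 3, where Col3a1 led. Genes of muscle fibres and satellite cells summed to 280.1, 263.5 and 209 in injured FAPs, led by Acta1 or Tnnt3, and adipocyte genes to 48.6, 34.9 and 32.8, led by Pparg, both below the FAP libraries. The part of division, of these cells and of dissociation in the results was not tested.

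**Figure D2:**
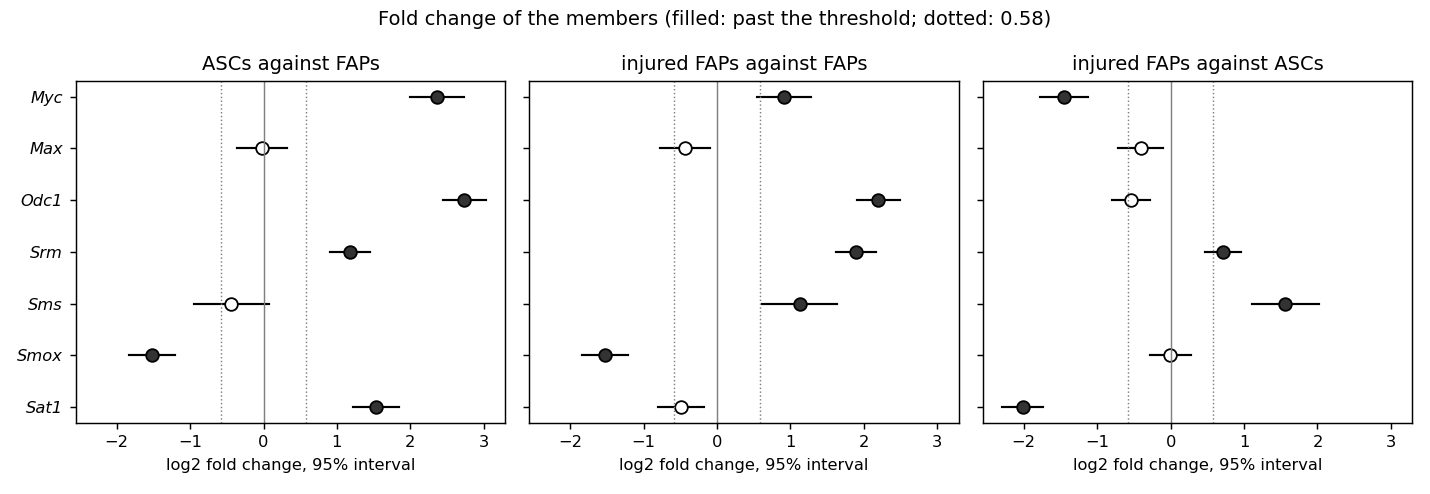
Log2 fold changes (horizontal axis) of the 7 members tested, with 95% confidence intervals from limma, for the comparison of ASCs with FAPs, of injured FAPs with FAPs and of injured FAPs with ASCs, where points past the threshold are filled. Odc1 and Srm lie above 0 in both comparisons with FAPs, and Smox lies at -1.53 in both.

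The third comparison sets injured FAPs directly against ASCs, a difference that neither comparison with FAPs tests. Myc and Sat1 were lower in injured FAPs and Srm and Sms were higher. That is 2 higher and 2 lower of 7 members, where 50.8% of all genes tested passed, 25.0% as higher and 25.8% as lower, so the members' share is close to that of all genes. Smox, Odc1 and Max did not pass. Of the calls over all genes 49.3% were higher in injured FAPs, and 81.3% with equal totals, where the median of all genes moved from 0.02 to 0.71, and to 0.14 with a common 75th percentile.

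Myc was lower in 3 of 3 injured libraries, with a log2 fold change of -1.45 (limma with Benjamini-Hochberg, adjusted p = 1.12e-05), a fold of 0.366. It was -0.75 with equal totals and -0.69 after quantile normalization, still past the threshold. Sat1 differed most, at 1768 ± 303 (SD, n = 3) against 7072 ± 477 (SD, n = 3), a log2 fold change of -2.01 (limma with Benjamini-Hochberg, adjusted p = 4.13e-07). Srm was higher by 0.71 (limma, adjusted p = 2.38e-04) and Sms by 1.56 (limma, adjusted p = 7.74e-05), each in 3 of 3 injured libraries. Odc1 had -0.54 (interval -0.80 to -0.28, limma, adjusted p = 0.00215), inside the fold threshold at the deposited scale, -0.64 and past it without ASC library 2, and 0.16 with equal totals. Smox had 0.00 (interval -0.28 to 0.28), and was higher in injured FAPs by 0.69 with equal totals. Max had -0.41 at the deposited scale and 0.29 with equal totals, and passed under neither. The comparisons share libraries, so their values are set side by side and not counted as separate evidence. For Myc these were 2.36, 0.91 and -1.45, for Odc1 2.74, 2.197 and -0.54, and for Srm 1.18, 1.89 and 0.71. Sat1 had 1.53, -0.48 and -2.01.

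Of the network genes 4 of 20 were higher and 5 lower in injured FAPs than in ASCs (45.0% called, median -0.15), against 9 higher and 2 lower with equal totals, median 0.55. Pim1, at 4534, 4262 and 4187 in injured FAPs, was lower by 1.63 on the log2 scale, the same side as Myc. Mxd3 had 4.88, Skp2 2.93, Ruvbl2 1.47 and Mlxipl -3.56, all called under both scalings. Ruvbl1 was higher at 0.85. Mxd4 (-1.23), Mxd1 (-0.93) and Mlxip (-0.75), a relative of Mlxipl, were lower and did not pass with equal totals, nor Mlxip after quantile normalization. Of the genes of control and transport 1 of 10 was higher and 5 were lower (60.0% called, median -0.48), a direction that turned with equal totals to 3 higher and 1 lower, median 0.21. Slc3a2 stayed lower under both, at -1.82 with the deposited scale, and Cav1, a caveolar protein tied to polyamine uptake, was the higher gene at 0.84. Azin1 (-1.21), Atp13a3 (-0.94) and Atp13a2 (-1.14) were lower, and did not pass with equal totals. Sat2 was lower at -0.64, a call that ended without ASC library 1 or 3 or injured FAP library 1 or 2, with values then between -0.51 and -0.59. It also ended with edgeR, DESeq2, a common 75th percentile, a pseudocount of 8, no filter or only the compared groups, and its sign turned with equal totals.

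Of the genes of supply and salvage 6 of 11 were higher and 2 lower (72.7% called, median 0.58), and 8 and 2 with equal totals. Mat2a differed most in this list, with 1999, 2196 and 2154 in injured FAPs and a log2 fold change of -2.95 (limma with Benjamini-Hochberg, adjusted p = 2.82e-06). Slc7a1 (-1.29) was lower and Slc7a2 (2.61) higher, so the carriers again stood in opposite order. Mtap (1.78), Enoph1 (1.35) and Apip (0.70) of the salvage route were higher, Apip not after quantile normalization. Mri1, at 0.58, barely passed, and did not without ASC library 1 or 3 or injured FAP library 1 or 3, with values then between 0.50 and 0.57, nor after quantile normalization or with a pseudocount of 8. Of the hypusine genes 1 of 4 was higher, Eif5a2 at 1.29, and 0 lower (25.0% called, median 0.37), against 4 higher with equal totals.

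The textbook Myc targets were higher for 15 of 25 genes and lower for 1 in injured FAPs (64.0% called, median 0.90), and for 23 and 1 with equal totals, median 1.60. At the deposited scale this is 0.88 above the median of all genes, and 1.01 after quantile normalization. Gart (1.78), Hspd1 (1.78), a mitochondrial chaperone, Nme1 (1.61), Cad (1.60) and Cdk4 (1.37) were among the higher ones, and Npm1 had 1.05. The lower target was Eif4e, at 2835, 2673 and 2969 in injured FAPs against 13110.3, 5709 and 7389 in ASCs, a log2 fold change of -1.54. Among the 9 targets that did not pass was Nop56, at -0.37. Myc itself was lower in injured FAPs. Marker lists differed between these groups too, by the sums given above for each library. The sums of cell division, pericyte, muscle and leukocyte genes were higher in every injured FAP library than in any ASC library, and those of immediate early, adipocyte and endothelial genes were lower. The endothelial sums in ASCs were mostly Tek, at 5986, 4841 and 6700 of 7364, 5926 and 7761. In injured FAPs Tek was at 395, 367 and 365 of 2353, 2484 and 1972, so the lower sums there rest on Tek. Endothelial genes went both ways, however, with Tek (-3.94), the most abundant of them in ASCs, and Plvap (-1.16) lower in injured FAPs. Cdh5 (2.82), Flt1 (2.72), Emcn (2.57), Egfl7 (2.43), Esam (2.06) and Tie1 (1.43) were higher there. The stromal genes, at 3195400.0, 2885300.0 and 3346700.0 in ASCs, led by Col1a1, were lower in injured FAPs too. Their part in the results was not tested. Of the genes that Myc represses 0 of 7 were higher and 5 lower (71.4% called, median -1.01), and 2 higher and 3 lower with equal totals, median -0.32. Ndrg1 (-2.41), Ndrg4 (-1.52) and Ndrg2 (-1.29) were lower under both scalings. The cell-cycle inhibitor Cdkn1a (-1.01) and the stress gene Gadd45a (-0.85) were lower too, and did not pass with equal totals, nor Cdkn1a after quantile normalization.

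Ratios of members within a library do not depend on how that library was scaled. They are not corrected for transcript length and are read only between libraries. Odc1 over Sat1, the entry step over acetylation, was 1.21, 1.01 and 1.02 in ASCs, 0.457 and 0.473 in FAPs, 2.91, 3.45 and 2.66 in injured FAPs and 0.400 in the CD31+CD45+ library. Every injured FAP library stood above every ASC library, and these above both FAP libraries. Smox over Srm, spermine oxidation over spermidine synthesis, was 0.0897, 0.0738 and 0.102 in ASCs, 0.539 and 0.607 in FAPs, 0.0482, 0.0550 and 0.0572 in injured FAPs and 3.21 in the CD31+CD45+ library. FAPs were the high group by this ratio, and injured FAPs the low one.

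Myc over Max was 15.4, 15.8 and 19.3 in ASCs, 3.33 and 3.07 in FAPs, 8.996, 8.16 and 7.36 in injured FAPs and 0.585 in the CD31+CD45+ library. The groups kept the order of Myc itself. Odc1 over Myc was 0.256, 0.260 and 0.233 in ASCs, 0.182 and 0.203 in FAPs, 0.410, 0.452 and 0.553 in injured FAPs and 0.791 in the CD31+CD45+ library, the highest of all. Injured FAPs thus carried more Odc1 for their Myc than ASCs did. Srm over Odc1 was 0.463, 0.589 and 0.440 in ASCs, 1.48 and 1.43 in FAPs, 1.19, 1.27 and 1.08 in injured FAPs and 0.318 in the CD31+CD45+ library. ASCs were below FAPs of either state, and the CD31+CD45+ library below ASCs. Myc over Fosb, an immediate early gene, was 0.129, 0.107 and 0.101 in ASCs, 0.159 and 0.141 in FAPs, 0.290, 0.263 and 0.319 in injured FAPs and 0.0466 in the CD31+CD45+ library. Among the stromal groups, Myc relative to Fosb was thus lowest in ASCs, the one in which its level was highest. This order holds for Fosb only, which was itself higher in ASCs than in FAPs by 2.79 on the log2 scale. Of the other listed immediate early genes, Atf3 (1.24) and Junb (0.76) were higher in ASCs too. Jun (-0.87), Ier2 (-0.68), Hspa1a (-2.38) and Hspa1b (-2.66) were lower, and Fos (-0.04), Egr1 (-0.24) and Zfp36 (0.08) did not pass. Ratios of Myc to those genes were not taken.

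**Figure D3:**
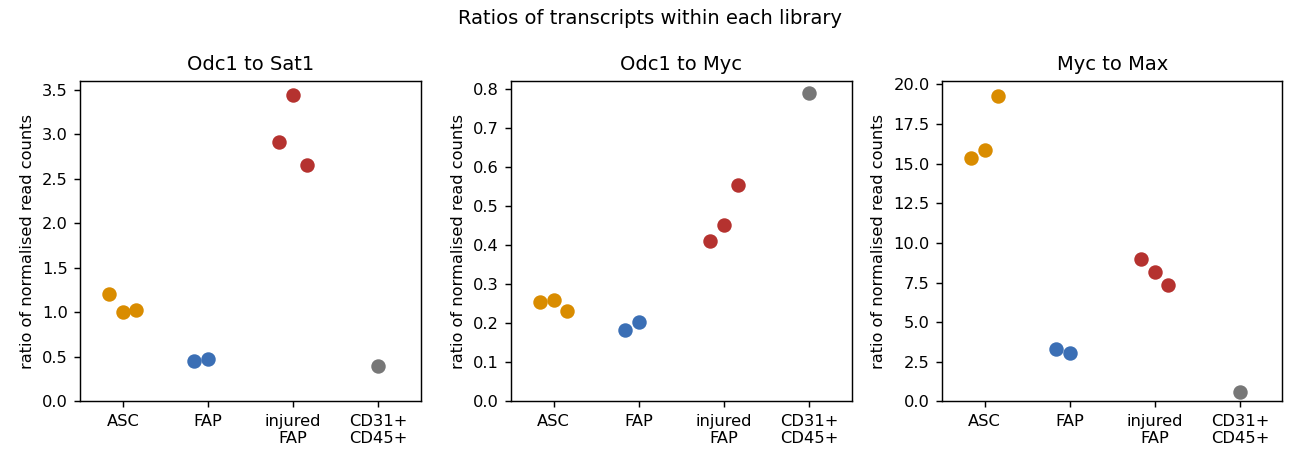
Ratios of normalised read counts of Odc1 to Sat1, Odc1 to Myc and Myc to Max (vertical axes, linear, from 0), with 1 point for each library of ASCs, FAPs, injured FAPs and CD31+CD45+ cells. Odc1 over Sat1 lies between 2.66 and 3.45 in injured FAPs, and at 0.457 and 0.473 in FAPs.

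Genes with a pattern like that of Myc were ranked by the root mean square difference of centred log2 levels over the 8 compared libraries, among 10592 genes with a mean of at least 100. Closest to Myc were Icam1 (0.127), Nampt (0.133), Ildr2 (0.147), Irgm2 (0.152) and Abl2 (0.154). Icam1, an adhesion molecule, was at 15125, 10908 and 11311 in ASCs, 2948 and 2541 in FAPs and 5079, 4342 and 4666 in injured FAPs, the order seen for Myc. Closest to Odc1 were Mapk6 (0.139), Sod2 (0.153), Ppa1 (0.182), Igf2bp2 (0.194) and Etf1 (0.206). Mapk6, an atypical kinase, was at 8293, 6465 and 6849 in ASCs, 1283 and 1238 in FAPs and 4577, 4177 and 4978 in injured FAPs. Odc1 itself came at rank 636 from Myc, with a difference of 0.548, and Sat1 at rank 735. Myc came at rank 248 from Odc1 and Srm at rank 618, so the members are not each other's nearest genes. These distances describe 8 libraries in 3 groups, and no p is given.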

How the data were processed

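The authors filtered reads with fastq_illumina_filter, checked them with FastQC, aligned them to mm10 with HISAT2 and counted them with featureCounts of Subread. They tested with DESeq2. What the authors deposited is a signal for each gene in each library, whose scaling is not stated in the sources used here. In all 9 libraries 100% of the values were whole reads times a constant, within a tolerance of 0.1 reads. The strand setting and the handling of reads with several matches are not given in the sources used here. Of 26214 genes listed, 6684 are at 0 in every library and 24918 matched GENCODE M21 (GRCm38), which gave coordinates and transcript lengths. The table has 2 empty columns.

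Limma 3.58.1 in R 4.3.3 was fitted to log2(value + 1) of 8 libraries with a mean per group and a trend in the prior variance. It has 5 residual degrees of freedom and Benjamini-Hochberg adjustment over 13601 genes. The values proved to be whole reads over a factor, so count tests on the recovered reads served as alternatives. In the order ASCs against FAPs, injured FAPs against FAPs, injured FAPs against ASCs, limma called 6416, 7153 and 6909 genes, edgeR 4.0.16 called 6450, 7303 and 7000, and DESeq2 1.42.0 called 6412, 7227 and 6865. The members and lists were chosen with earlier results of these data known. Genes named are the members, genes of the lists (Myc and Max network, polyamine control and transport, polyamine supply and salvage, hypusine, textbook Myc targets, genes Myc represses, and the marker lists), and the 5 genes most like Myc and Odc1. Counts and medians cover whole lists, and not every gene of a list is named. Python 3.11.15 read the tables and sequences. Other alternatives were pseudocounts of 0.5 and 8, no filter or a mean of at least 50, quantile normalization, a common 75th percentile, unadjusted p, only the compared groups, a replicate block and each library left out. Equal totals per library were added after seeing the data.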

Additional observations from a re-analysis of the deposited data

Results flagged for a closer look

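The CD31+CD45+ library of glycerol-injected muscle entered no comparison, and 3 members had a higher level there than in any NaCl library. Max stood at 2511.08, where the highest NaCl library had 2325.14. Sms stood at 227.566, against 104.428. Smox stood at 1183.34, against 953.021. The library has no replicate and 13091077 reads on genes, and these levels were not tested. No NaCl library of the same cell type was sequenced, so cell type and injury cannot be told apart in it.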

How the results depend on the processing

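Over all alternatives, 399 fold changes of members kept their direction and their side of the threshold, 7 kept their direction and passed only under the alternative, and 14 reversed. None that passed at the deposited scale failed under an alternative or reversed. The reversed values were all of members that had not passed, and the cause was not tested. In ASCs against FAPs these were Sms at 0.055 after quantile normalization and Max at 0.005 with DESeq2. Max also turned without ASC library 2 or 3 or FAP library 1, within a range of -0.201 to 0.064 over all libraries left out in turn. In injured FAPs against ASCs they were Smox at 0.113 with a common 75th percentile, 0.080 with edgeR, 0.002 with DESeq2 and 0.692 with equal totals, where it passed. Smox also turned without ASC library 1 or injured FAP library 1, within a range of -0.098 to 0.101 over all libraries left out in turn. With equal totals Max was at 0.288 and Odc1 at 0.159. The other values that passed only under an alternative, with no change of direction, were Sms in ASCs against FAPs at -0.603 with a common 75th percentile and -0.993 with equal totals, Max at -0.592 with equal totals, and Sat1 in injured FAPs against FAPs at -0.633 after quantile normalization, beside those without 1 library given with the results.

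With each library left out in turn, genes called numbered 5653 to 6683 in ASCs against FAPs, 6323 to 7358 in injured FAPs against FAPs and 6582 to 7190.0 in injured FAPs against ASCs. Members called numbered 5 to 6, 5 to 6 and 4 to 5, and pathway genes called 34 to 39, 46 to 52 and 42 to 48, where 38, 49 and 45 were called with all libraries. Where 1 FAP library is left out, the other is assumed to vary like the other groups.

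A replicate block, which treats equal replicate numbers as pairs, gave Max 0.028 in ASCs against FAPs. The 7 pairs of equal number correlated at -0.054 to 0.045 across genes, so the numbers carry no sign of a shared block. FAPs have 2 libraries, the libraries come from pooled cells, and depth limits genes near the level of 3 reads. Per-library totals differ between groups, which is why list directions against ASCs turn with equal totals.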
